A study of Mus musculus with 8 samples.

Results

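Follistatin, the activin subunits, the activin receptors and their nearest relatives were followed across 4 mouse tumor cell lines as a set of 10 genes: Fst, Fstl1, Fstl3, Inhba, Inhbb, Acvr1, Acvr1b, Acvr2a, Acvr2b and Grem1. The members were chosen by name from 18768 genes in the deposited count table, and all 10 were found there. Fst was picked for its very large rise in the lines labelled IRF8 KO, so its counts between the labels chose it and are given as a description with no test. All 10 members passed the filter on low counts that kept 15153 genes; Inhbb and Fst are low in the libraries of 1 label.

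RNA was sequenced from 8 libraries, 2 of each line. MC010 and MC011 are labelled IRF8 KO, and MC654 and MC659 are labelled WT. Each line was grown out of 1 subcutaneous tumor that methylcholanthrene (MCA), a chemical carcinogen, had induced in an IRF8 KO mouse or a WT mouse of strain C57BL/6, with at least 10 passages in culture, and the labels call the lines fibrosarcoma. All 4 lines were grown in the same medium, RPMI with serum and antibiotics, and no treatment of the cells in culture is labelled. The age of the mice is not given in the sources used here. The 2 libraries of a line share a tumor. The labels therefore hold 4 libraries each but 2 lines each, and over lines the smallest exact two-sided permutation p would be 0.333. The p-values below for differences between lines measure the spread between libraries of a line, which may be technical. Those between the labels measure the spread among all libraries of a label. That spread takes in the difference between its lines, but libraries are counted as independent. Only the fits on each line's summed counts or with the line as a random block allow for libraries that share a line.

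Activins are secreted dimers of the beta subunits that Inhba and Inhbb encode. They bind a type II receptor (Acvr2a or Acvr2b), which recruits and phosphorylates a type I receptor such as Acvr1b, and the receptor complex then phosphorylates the signal transducers Smad2 and Smad3. Follistatin, the product of Fst, and its relative Fstl3 wrap around activin and keep it from its receptors, and in fibroblasts and other mesenchymal cells the balance of ligand and binding protein sets how much activin is free to signal.

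The libraries held 74063616 to 116206078 counts, with a median of 85999542 for the label IRF8 KO and 86720186 for WT. Values are CPM, the usual scaling of counts to library size, here after TMM normalization, and a level of 3 counts, taken as the floor, was 0.0262 to 0.0408 CPM. A gene is called at an adjusted p under 0.05 (edgeR) with a log2 fold change over 0.59 in size, which is 1.51-fold. The RNA of Irf8 went against the labels, with 831 counts over the libraries labelled IRF8 KO (789 in MC010 and 42 in MC011) and 4 over those labelled WT. The authors genotyped all 4 lines by PCR of genomic DNA and reported genotypes that match the labels. A total for the whole gene does not tell whether its deleted part was read, so every direction below is by label and not by IRF8 function. The mesenchymal marker Vim was at 4532 to 7384 CPM in all 8 libraries. Of 6 mesenchymal markers, S100a4 (log2 fold change 2.17) and Thy1 (1.93) were called higher with the label IRF8 KO, and 4 were not called. Of those not called, Col1a2 (-1.08) and Col1a1 (-0.50) were lower, and Pdgfrb (0.61) and Vim (0.39) higher. Thy1 was high in MC011 alone, at 70.2 CPM, beside 12.3 CPM in MC010, 9.23 CPM in MC654 and 12.4 CPM in MC659. Of the hematopoietic markers in the table, Ptprc and Cd79a were below the filter, Cd68 was at 5.25 to 10.1 CPM, and Csf1r, at 0.245 to 1.80 CPM, was called lower with the label IRF8 KO (log2 fold change -1.93, adjusted p = 0.00200). The endothelial marker Tek (2.37) and the epithelial marker Epcam (2.20) were called higher, at no more than 1.19 CPM. Tek held 2 to 6 counts in the libraries labelled WT and passed the filter on low counts only through the label IRF8 KO. Its call follows in part from that filter. The endothelial markers Cdh5 (-1.12) and Pecam1 (-0.69) were lower and not called. MC010 stood apart from MC011 in the epithelial keratin Krt8 (293 and 274 CPM in MC010, 1.31 and 1.28 CPM in MC011) and in Myod1, a muscle-determining factor, which was at 2.46 and 2.78 CPM in MC010 and at 0 counts in both MC011 libraries. The 4 epithelial markers summed to 33.3 to 565 CPM with the label IRF8 KO and 114 to 129 CPM with WT, and the 4 of 7 hematopoietic markers in the table to 5.72 to 7.38 and 9.67 to 11.4 CPM. The part of these differences in the results was not tested. In bulk RNA, fewer cells of a type and less RNA per cell cannot be told apart.

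The promoter windows of Inhba, Inhbb and Fstl3 are shown because they are the activin subunits and the activin-binding relative of follistatin whose levels differ below, and because each holds a match that the windows of the other members lack. They are the 250 bases before the RefSeq start (GRCm38.p6), written 5′ to 3′ on the gene's strand with motif matches in capitals.
Inhba, chr13:16011601-16011850, plus strand: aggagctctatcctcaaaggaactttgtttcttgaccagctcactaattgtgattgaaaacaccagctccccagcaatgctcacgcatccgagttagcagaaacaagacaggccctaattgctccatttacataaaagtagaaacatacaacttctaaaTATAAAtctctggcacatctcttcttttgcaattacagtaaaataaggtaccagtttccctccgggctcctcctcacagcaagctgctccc
Inhbb, chr1:119422249-119422498, minus strand: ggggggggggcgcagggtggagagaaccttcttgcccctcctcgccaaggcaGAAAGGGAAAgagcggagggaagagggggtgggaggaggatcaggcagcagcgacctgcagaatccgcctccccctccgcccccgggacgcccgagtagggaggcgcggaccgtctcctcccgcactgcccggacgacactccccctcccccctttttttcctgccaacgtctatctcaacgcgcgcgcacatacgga
Fstl3, chr10:79777024-79777273, plus strand: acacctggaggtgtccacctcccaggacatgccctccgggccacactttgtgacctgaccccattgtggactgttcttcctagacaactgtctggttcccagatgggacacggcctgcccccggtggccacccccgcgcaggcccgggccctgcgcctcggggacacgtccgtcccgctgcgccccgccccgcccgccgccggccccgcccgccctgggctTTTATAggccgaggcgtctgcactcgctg
Windows were found for 9 of the 10 members, all but Fst. They were searched on both strands for GAAANNGAAA, the core of the interferon-stimulated response element, for GGAANNGAAA, the composite element of ETS and IRF factors, which shares its last letters with the first motif, for the SMAD palindrome GTCTAGAC and for the TATA box TATAAA. The first occurs in 2.98% of all 32851 windows, the second in 2.30%, the third in 0.167% and the TATA box in 12.4%. Among the members, Inhbb has a match of GAAANNGAAA that begins 198 bases before its start. The Inhba window has TATAAA beginning 91 bases before the start, and the Fstl3 window has it on the opposite strand at 29 bases. No match of these letters lies in the windows of Acvr1, Acvr1b, Acvr2a, Acvr2b, Fstl1 or Grem1. The Inhba window is also the one member window of low GC content, at 43.2%, against 68.0% for Inhbb, 68.0% for Fstl1, 71.2% for Fstl3 and 72.0% for Grem1 and a median of 52.4% over all windows. The match in Inhbb is a description of letters and not of a bound site.

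Inhbb and Acvr1b separated the labels with little difference inside either label, Fstl3 and Grem1 were higher under the label IRF8 KO, while Inhba was low in MC011 and Fstl1 low in MC010 against the other 3 lines. Among the 9 members other than Fst, 4 were called between the labels, which is 44.4% against 22.5% of all genes tested. With the label IRF8 KO, 3 of these were higher (Fstl3, Acvr1b and Grem1; 13.7% of all genes were called higher) and 1 was lower (Inhbb; 8.72% of all genes were called lower). The median log2 fold change of the 9 members was 0.07, beside 0.02 over all genes tested.

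**Figure D1:**
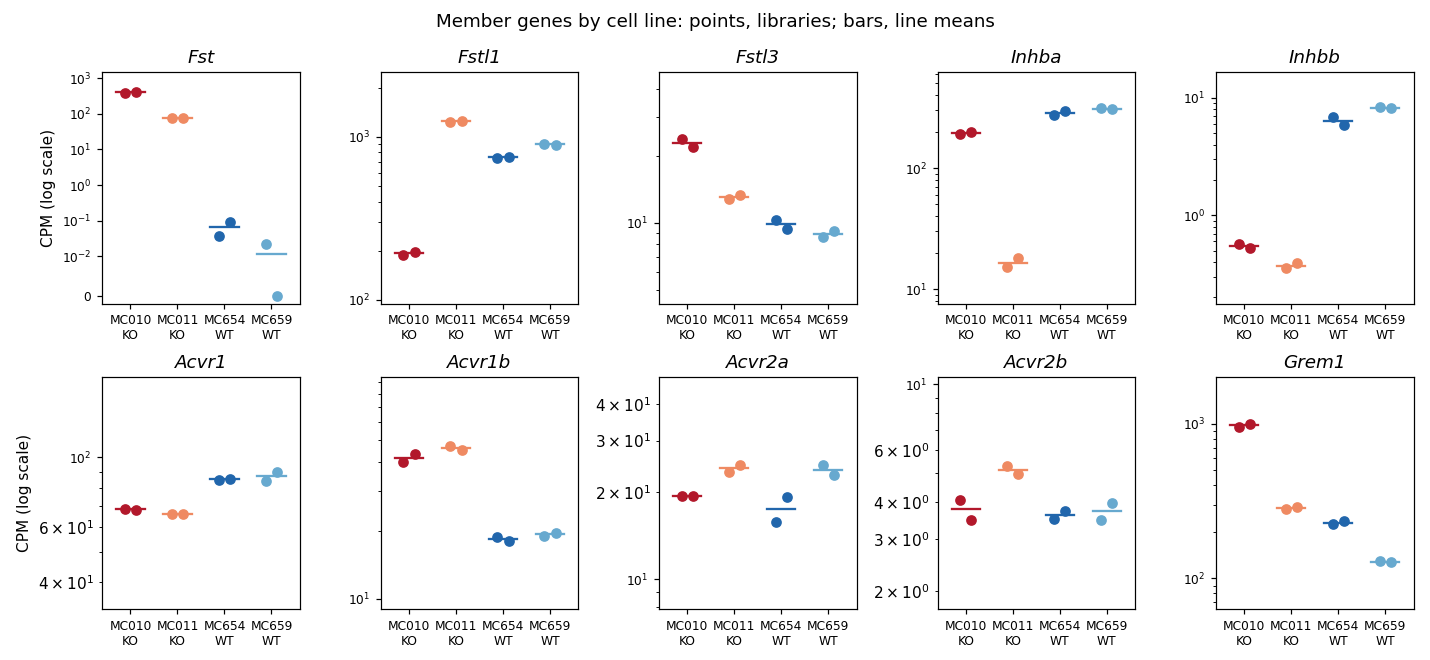
CPM (log scale; linear below 0.01 for Fst) of each member in the 8 libraries, with points for libraries and bars for line means, red for the lines labelled IRF8 KO and blue for those labelled WT. Inhbb and Acvr1b form a step between the labels, while Inhba is far lower in MC011 than in any other line, and Fstl1 in MC010. Inhba in MC010 is also below the lines labelled WT, by less.

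Inhba (ENSMUSG00000041324, chromosome 13 of mm10, 16011851 to 16031621) encodes the beta A subunit of activin A. Its level was 192 and 200 CPM in MC010 and 15.1 and 17.9 CPM in MC011, while the WT-labelled MC654 had 276 and 296 CPM and MC659 312 and 306 CPM. Every library labelled IRF8 KO was below every library labelled WT, but MC010 lay near the WT-labelled lines and MC011 far below them. The means were 106 ± 104 CPM for the label IRF8 KO and 297 ± 15.8 CPM for WT (SD, n = 4 libraries each), and the difference did not pass the test (log2 fold change -1.48, SE 0.82, adjusted p = 0.195, edgeR). Between the lines labelled IRF8 KO, Inhba was 11.9-fold higher in MC010 (log2 difference 3.57, SE 0.07, adjusted p = 3.19e-15, edgeR line fit). With MC010 left out the log2 fold change between the labels was -4.19 (adjusted p = 5.29e-10), and with MC011 left out it was -0.61 (adjusted p = 1.20e-05), so that its size rests on which line stands for the label.

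Inhbb (ENSMUSG00000037035, chromosome 1, 119415465 to 119422248, minus strand), whose promoter window above holds the GAAANNGAAA match, encodes the beta B subunit. It was at 0.568 and 0.531 CPM in MC010 and 0.353 and 0.392 CPM in MC011, while the WT-labelled MC654 had 6.92 and 5.87 CPM and MC659 8.34 and 8.14 CPM. The groups did not overlap, and both lines of each label were close to each other. Inhbb fell by 3.98 on the log2 scale in the libraries labelled IRF8 KO, being 15.8-fold higher in those labelled WT (SE 0.23, adjusted p = 1.64e-05, edgeR). The call held in 17 of 18 alternative fits, the exception being the sums of each line's counts (adjusted p = 0.0670). The 12 genes tested within 1 Mb of Inhbb on each side held 0 called genes between the labels, with a median log2 fold change of -0.11. Over all genes tested, 22.5% were called. Near Inhbb, 3 genes (Ptpn4, Tmem185b and Ralb, named after their values were seen) had adjusted p-values of 0.00436, 0.00562 and 0.00855. Their log2 fold changes were -0.42, -0.52 and -0.26.

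Between the activin subunits, Inhba was the more abundant in all 4 lines. On the scale of CPM per kb of exon, which allows levels of genes to be compared, the ratio of Inhba to Inhbb was 238 ± 18.6 in MC010, 29.5 ± 1.37 in MC011, 30.0 ± 4.95 in MC654 and 24.9 ± 0.08 in MC659 (SD, n = 2 libraries each). The ratio in MC010 thus lay above all others, whereas MC011, where both subunits were low, had a ratio inside the range of the libraries labelled WT. Inhba stood higher than 89.3% of tested genes in mean CPM per kb and Inhbb higher than 28.7%.

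Fst (ENSMUSG00000021765, chromosome 13, 114452262 to 114458949, minus strand) encodes follistatin. Its counts were 44989 and 29909 in MC010, 7121 and 5941 in MC011, 3 and 8 in MC654, and 2 and 0 in MC659. In CPM these were 393 and 407 in MC010, 73.9 and 75.2 in MC011, 0.0360 and 0.0941 in MC654, and 0.0227 and 0 in MC659. The libraries labelled WT were near the floor of 3 counts. Summed over libraries, the ratio of the labels was 6456 (95% exact interval 3775 to 12126), and it was 10630 (6216 to 19965) for MC010 and 1986 (1161 to 3730) for MC011 against the libraries labelled WT. These intervals cover counting error only, and the ratios are the values Fst was picked for.

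Between lines of 1 label, which the choice did not use, Fst was 5.37-fold higher in MC010 than in MC011 (log2 difference 2.42, SE 0.06, adjusted p = 2.76e-14, edgeR line fit). MC654 and MC659 had 11 and 2 counts in all, a ratio of 5.82 with an exact interval of 1.27 to 54.0, which did not pass the test (adjusted p = 0.0757). Without the library MC654 replicate 1 that adjusted p was 0.0401, at a log2 difference of 2.92.

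Fstl3 (ENSMUSG00000020325, chromosome 10, 79777272 to 79782630) encodes the follistatin-like protein that also binds activins. It was at 23.9 and 21.8 CPM in MC010 and 12.7 and 13.3 CPM in MC011, while the WT-labelled MC654 had 10.3 and 9.38 CPM and MC659 8.65 and 9.15 CPM. The groups did not overlap, with MC011 only a little above MC654. The means were 17.9 ± 5.73 CPM for the label IRF8 KO and 9.36 ± 0.68 CPM for WT (SD, n = 4 libraries each), a log2 fold change of 0.94 (SE 0.22, adjusted p = 0.0119, edgeR). Leaving out any single library kept the call (adjusted p up to 0.0395). It was lost without MC010 (log2 fold change 0.46, adjusted p = 0.00308), without MC654 (adjusted p = 0.0901) and without MC659 (adjusted p = 0.132), and the adjusted p was 0.0632 when lines entered as a random block and 0.235 on line sums. The direction of Fstl3 was that of Fst, while its size was far smaller, and MC010 was above MC011 in both genes.

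Fstl1 (ENSMUSG00000022816, chromosome 16, 37776873 to 37836514) encodes a secreted glycoprotein with a follistatin-like domain that fibroblasts make in quantity. It was at 189 and 196 CPM in MC010 and 1233 and 1250 CPM in MC011, while the WT-labelled MC654 had 744 and 747 CPM and MC659 907 and 895 CPM. The libraries labelled IRF8 KO lay on both sides of those labelled WT. Between the labels the log2 fold change was -0.20 (95% interval -1.44 to 1.04, adjusted p = 0.832, edgeR), and it turned from -2.11 without MC011 to 0.57 without MC010. Leaving out a single MC010 library also turned its sign (0.12 without replicate 1 and 0.10 without replicate 2, adjusted p = 0.892 and 0.905). Fstl1 was 6.46-fold lower in MC010 than in MC011 (log2 difference -2.69, SE 0.04, adjusted p = 2.67e-16, edgeR line fit). It was the member with the highest level per length, above 98.5% of tested genes in CPM per kb.

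Grem1 (ENSMUSG00000074934, chromosome 2, 113746164 to 113758646, minus strand) encodes gremlin, a secreted antagonist of BMP2 and BMP4. It was at 956 and 999 CPM in MC010 and 280 and 288 CPM in MC011, while the WT-labelled MC654 had 225 and 234 CPM and MC659 130 and 127 CPM. The groups did not overlap, but MC011 stood closer to MC654 than to MC010. The log2 fold change between the labels was 1.82 (SE 0.50, adjusted p = 0.0218, edgeR). The call was lost without either library of MC010 (adjusted p = 0.05002 without replicate 1 and 0.0508 without replicate 2) or either library of MC659 (0.0662 and 0.0649), and without the line MC010 the log2 fold change was 0.65 (adjusted p = 0.170). The adjusted p was 0.0815 without MC654, 0.203 without MC659 and 0.256 on line sums. Grem1 differed inside both labels, by 1.78 between MC010 and MC011 (adjusted p = 3.79e-14) and by 0.84 between MC654 and MC659 (adjusted p = 1.12e-08) on the log2 scale. It was the only member called between MC654 and MC659.

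Acvr2a (ENSMUSG00000052155, chromosome 2, 48814109 to 48903269) and Acvr2b (ENSMUSG00000061393, chromosome 9, 119402118 to 119434995) encode the type II receptors that bind activin first. Acvr2a was at 19.3 and 19.3 CPM in MC010 and 23.3 and 24.8 CPM in MC011, while the WT-labelled MC654 had 15.8 and 19.2 CPM and MC659 24.7 and 22.9 CPM. Acvr2b was at 4.07 and 3.47 CPM in MC010 and 5.28 and 4.97 CPM in MC011, while the WT-labelled MC654 had 3.50 and 3.72 CPM and MC659 3.47 and 3.97 CPM. For both genes the groups overlapped. The log2 fold change between the labels was 0.07 for Acvr2a (95% interval -0.24 to 0.38, adjusted p = 0.755) and 0.28 for Acvr2b (95% interval -0.05 to 0.61, adjusted p = 0.234). A change beyond 1.51-fold was outside the interval for Acvr2a and barely inside it for Acvr2b. These intervals count the libraries of a line as independent, so they do not exclude such a change over lines. For Acvr2a the log2 fold change was -0.14 without MC654 and 0.30 without MC659. The sign of Acvr2a turned without MC654 replicate 1 (-0.04, adjusted p = 0.850). The gene Orc4 overlaps Acvr2a on the opposite strand and held 4401 to 6677 counts per library. Since the sources used here do not say whether counting used strand, reads of Acvr2a and Orc4 may not have been told apart.

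Acvr1 (ENSMUSG00000026836, chromosome 2, 58388644 to 58567157, minus strand) encodes a type I receptor used chiefly by BMPs, which activin can occupy. It was at 68.7 and 68.0 CPM in MC010 and 66.2 and 65.8 CPM in MC011, while the WT-labelled MC654 had 84.9 and 85.3 CPM and MC659 84.1 and 89.9 CPM. The groups did not overlap and the spread within each was small. With the label IRF8 KO, Acvr1 had a log2 fold change of -0.36 (SE 0.05, adjusted p = 7.65e-04, edgeR), short of the fold needed for a call.

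Acvr1b (ENSMUSG00000000532, chromosome 15, 101174067 to 101213684) encodes ALK4, the main type I receptor of activins. It was at 40.1 and 43.4 CPM in MC010 and 47.3 and 45.0 CPM in MC011, while the WT-labelled MC654 had 18.8 and 18.1 CPM and MC659 19.0 and 19.5 CPM. The groups lay far apart, with both lines of a label close together. Acvr1b rose 2.34-fold in the libraries labelled IRF8 KO (log2 fold change 1.22, SE 0.07, adjusted p = 1.44e-05, edgeR), and the call held in 17 of 18 alternatives, all but the line sums (adjusted p = 0.0715). Of 32 tested genes within 1 Mb of Acvr1b, 10 were called higher and 1 lower (median log2 fold change 0.46). Over all genes tested, 13.7% were called higher and 8.72% lower. Among those called higher near Acvr1b was the related receptor gene Acvrl1 at 28.7 kb. Acvrl1 passed the filter on low counts only through the label IRF8 KO, so its call adds no support to that count. Whether other neighbours did so was not examined. The ratio of Acvr1 to Acvr1b in CPM per kb was 1.501 ± 0.09 in MC010 and 1.31 ± 0.04 in MC011, beside 4.23 ± 0.13 in MC654 and 4.14 ± 0.12 in MC659 (SD, n = 2 libraries each). The sum of both type I receptors differed little, at 23.6, 24.1, 21.8 and 22.4 CPM per kb in MC010, MC011, MC654 and MC659.

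Set side by side per length, binding proteins and subunits had opposite orders in the lines of the 2 labels. Fst and Fstl3 together were at 96.5 ± 1.498 CPM per kb in MC010, 21.6 ± 0.38 in MC011, 4.03 ± 0.25 in MC654 and 3.64 ± 0.14 in MC659 (SD, n = 2 libraries each). Inhba and Inhbb together were at 30.9 ± 0.90 CPM per kb in MC010, 2.67 ± 0.32 in MC011, 46.2 ± 2.06 in MC654 and 50.2 ± 0.73 in MC659. RNA of the binding proteins thus exceeded that of the subunits 3.13-fold in MC010 and 8.12-fold in MC011, and subunit RNA exceeded binding protein RNA 11.5-fold in MC654 and 13.8-fold in MC659. MC011 reached the higher ratio with less Fst than MC010, its subunits being lower still. These ratios hold Fst, which was picked for its level, and are given with no test. They are ratios of RNA and not of protein.

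**Figure D2:**
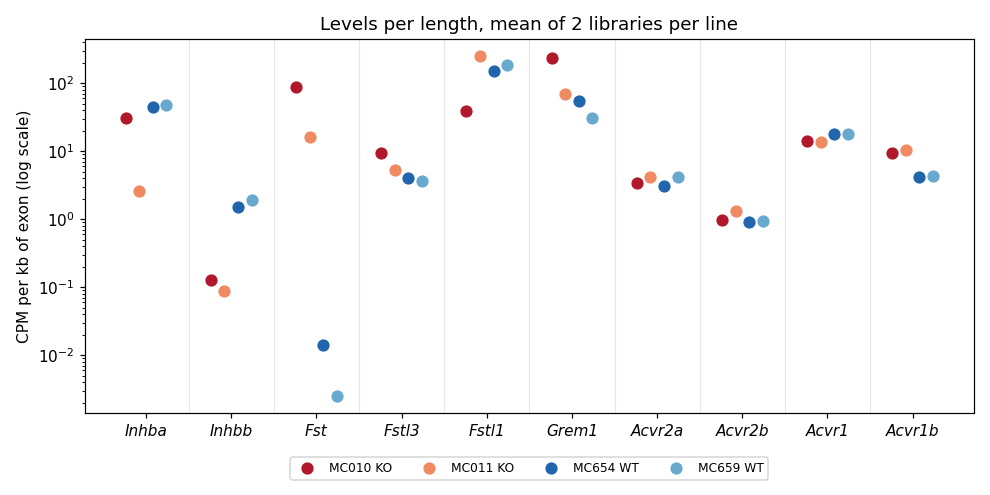
Mean level per length (CPM per kb of exon, log scale) of each member in the 4 lines, 2 libraries each. Fst spans the widest range, from 87.2 in MC010 to 0.00247 in MC659, while the type II receptors stay within a narrow band of levels.

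MC010 and MC011 differed in more members than MC654 and MC659 did; the difference between these counts was not tested. Between MC010 and MC011, 5 of 10 members were called, where 31.6% of all genes tested were called, with Fst, Fstl3, Inhba and Grem1 higher in MC010 and Fstl1 lower. Between MC654 and MC659, 1 of 10 was called, where 4.95% of all genes were. Inhbb was short of the fold in the first comparison (0.57, adjusted p = 0.0450), and the 4 receptor genes differed by at most 0.44 on the log2 scale in size in both comparisons. By the adjusted p alone, 9 members passed between MC010 and MC011, where 63.0% of all genes did, and 3 between MC654 and MC659, where 14.5% did. Across the labels that share was 66.7% of all genes for MC010 against MC654, 67.9% for MC010 against MC659, 60.9% for MC011 against MC654 and 61.4% for MC011 against MC659.

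**Figure D3:**
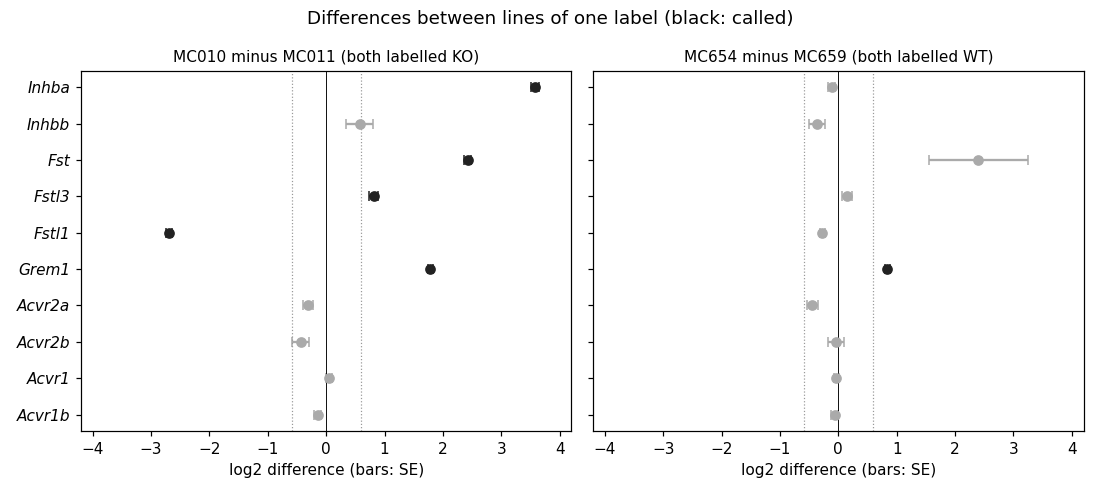
Log2 difference of each member between lines of 1 label, with SE bars, black where called and grey where not, and dotted lines at 0.59. Inhba (3.57) and Fstl1 (-2.69) are the extremes on the left, and on the right Fst rests on 11 against 2 counts.

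Ordering each gene's 4 line means gave 30 pairs of neighbouring lines, of which 29 were tested and 18 were apart at an adjusted p under 0.05. The order MC010, MC011, MC654, MC659 from high to low was that of Fst, Fstl3 and Grem1. Of these, Fstl3 did not differ beyond its spread between MC654 and MC659 (adjusted p = 0.330), and neither did Fst. For Inhba, Inhbb and Acvr1 the order was MC659, MC654, MC010, MC011, and MC659 was not apart from MC654 in any of them (adjusted p = 0.262, 0.0781 and 0.749). Acvr1b ran MC011, MC010, MC659, MC654, with the last pair not apart (adjusted p = 0.602). Acvr2a and Acvr2b were both highest in MC011, where Acvr2a was not apart from MC659 (adjusted p = 0.874) and Acvr2b was apart from MC010 (adjusted p = 0.0120).

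The genes whose log2 CPM followed that of Fst most closely over the 8 libraries, among 10688 genes with a mean log2 CPM of at least 1, were Dkk2 (Pearson's r 0.9986), Slc12a2 (0.9982), Asap2 (0.9979), Slc35e1 (0.9976) and Kalrn (0.9975). Dkk2, a modulator of Wnt signalling, was at 508, 249, 8.46 and 4.76 CPM in MC010, MC011, MC654 and MC659. Kalrn, a guanine nucleotide exchange factor, was at 47.3, 25.04, 1.61 and 0.815 CPM. These correlations are descriptions over 8 libraries of 4 lines and share the gap between the labels. Among the members, Acvr1b (0.96), Fstl3 (0.90) and Grem1 (0.85) ran with Fst and Acvr1 (-0.96) against it. Inhba (-0.57) and Fstl1 (-0.50) were also negative, and Acvr2b (0.47) and Acvr2a (0.07) positive. Inhbb, which was lower with the label IRF8 KO, has no value here because its mean log2 CPM was under 1. Of 9 tested genes within 1 Mb of Fst, 3 were called higher with the label IRF8 KO, where 13.7% of all genes tested were. These were 4930544M13Rik (log2 fold change 7.96) and the integrin genes Itga2 (4.57) and Itga1 (2.56). The nearest, Ndufs4 at 64.0 kb, was at 0.23 (adjusted p = 0.182). Of the genes near other members, 6 of 26 at Acvr2b were called higher, and 6 of 65 higher and 7 lower at Fstl3. At Fstl1 4 of 21 were lower, beside 8.72% of all genes. At Inhba, Acvr2a and Grem1 1 neighbour each was lower, and at Acvr1 1 was higher. Whether any of these neighbours passed the filter on low counts only through the label where it was high was not examined.

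Beyond the members, BMP ligands and BMP target genes were mostly higher with the label IRF8 KO, and activin and TGF-beta target genes mostly lower. The median log2 fold change was 2.74 over 4 ligands tested, 1.27 over 4 BMP targets and -1.05 over 4 activin and TGF-beta targets, beside 0.02 over all genes. The ligand median includes Bmp4, which passed the filter on low counts only through the label IRF8 KO. That median therefore adds no support for a rise of the ligands as a set. The calls of Bmp2 and Bmp6 were lost once libraries of a line could correlate (adjusted p = 0.101 and 0.119, limma-voom). The lists of other pathway genes named 49 genes, of which 42 were in the table, 36 were tested and 21 were called, 15 higher and 6 lower, or 58.3% against 22.5% of all genes. These lists were chosen with earlier results of these data known. Bmp4, Acvrl1, Lefty1, Chrd and Cer1, which count among the 21, passed the filter on low counts only through the label where they were high. Their calls follow in part from that filter and add no support to the share called. Of the 21 calls, 16 held whichever library was left out and 8 whichever line was left out. With the line as a random block, at an estimated correlation of 0.828, 14 of them held and 7 were lost. Bmp4, Acvrl1, Lefty1 and Chrd are among the 16, the 8 and the 14, and Cer1 is among the 16. Since their calls follow in part from the filter, they add no support to these counts either.

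Of 4 BMP and GDF ligands tested, 3 rose and Gdf11 was at a log2 fold change of 0.06 (adjusted p = 0.691). Bmp4 had 4381 counts over the libraries labelled IRF8 KO and 2 over those labelled WT, a ratio of 2090 (exact interval 578 to 17264). Bmp6 rose by 4.34 on the log2 scale (adjusted p = 0.00562) and Bmp2 by 1.15 (adjusted p = 0.0175, and 0.0519 without MC659 replicate 1). Both calls were lost with an estimated correlation within lines (adjusted p = 0.119 for Bmp6 and 0.101 for Bmp2), and that of Bmp6 also without the line MC654 (0.0906) or MC659 (0.0602). Of 7 other antagonists, 4 rose: Lefty1, an inhibitor of Nodal (5.83, adjusted p = 1.55e-04), Chrd, which encodes the BMP binder chordin (4.41, adjusted p = 0.00187), Twsg1 (0.78, adjusted p = 0.00133) and Nbl1 (0.63, adjusted p = 6.19e-04). In the libraries labelled WT, Lefty1 held 4 to 14 counts and Chrd 2 to 25. Both passed the filter only through the label IRF8 KO. Cer1, which passed it only through WT, was called lower at under 0.3 CPM in every library, a call lost with an estimated correlation (adjusted p = 0.0874). Bmper (0.68, adjusted p = 0.462) and Wfikkn1 (0.66, adjusted p = 0.109) were not called. The inhibin alpha subunit gene Inha, whose product turns the beta subunits into inhibins, was lower (-0.88, adjusted p = 0.0189, 0.0542 without MC654 replicate 1, and 0.447 with an estimated correlation).

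Of 8 other receptors, Tgfbr1 rose by 1.03 (adjusted p = 0.00541), and Acvrl1 had 514 counts against 8, a ratio of 61.3 (exact interval 30.9 to 143). The Tgfbr1 call was lost without MC010 (log2 fold change 0.58), MC654 (adjusted p = 0.0661) or MC659 (0.0835). The most abundant of those not called were Bmpr1a (-0.12, adjusted p = 0.222), Bmpr2 (-0.39, adjusted p = 0.0368) and Tgfbr3 (-0.43, adjusted p = 0.213). Acvr1c, a further type I receptor of the activin branch, was below the filter. Among the 8 SMAD genes, Smad3, the transducer below Acvr1b, was at 171, 174, 159 and 154 CPM in the libraries labelled IRF8 KO and at 65.4, 63.6, 67.8 and 66.95 CPM in those labelled WT. The groups of Smad3 did not overlap, and it rose by 1.32 (SE 0.06, adjusted p = 4.35e-06), close to the value of Acvr1b. Smad5 (0.36, adjusted p = 0.0360) and Smad2 (0.42, adjusted p = 0.0299) were short of the fold, and Smad4 was at 0.23 (adjusted p = 0.344). Smad6, an inhibitory SMAD, rose by 0.94 (adjusted p = 0.0221) and Smad9 fell by 1.23 (adjusted p = 0.0394). The Smad6 call was lost without MC654 replicate 1, MC654 replicate 2 or MC659 replicate 1 (adjusted p up to 0.0660) and with an estimated correlation (0.132), and the Smad9 call without any library of MC010, MC654 or MC659 (up to 0.0856).

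All 4 activin and TGF-beta target genes were called, 3 of them lower. Ccn2, listed in the table as Ctgf, which encodes a matrix-associated growth factor, fell by 1.24 (adjusted p = 0.00692), the SMAD corepressor gene Skil by 1.17 (adjusted p = 5.11e-06) and Pmepa1, a feedback inhibitor, by 0.93 (adjusted p = 0.00353). The Ccn2 call was lost without the line MC654 (adjusted p = 0.0750) or MC659 (0.0616), and the Pmepa1 call without MC654 (0.0565). Tgfbi, a matrix protein gene, rose by 1.61 (adjusted p = 0.0405), a call lost without any library of MC010, MC654 or MC659 (adjusted p up to 0.106) and with an estimated correlation (0.0719). Of 4 BMP target genes, Id1 rose by 1.09 (adjusted p = 0.00461), Id3 by 1.46 (adjusted p = 4.79e-04) and Id4 by 6.08 (adjusted p = 0.00173), and Id2 was at 0.11 (adjusted p = 0.515). Skil, Smad3, Id3 and Id4 were among the 8 that held whichever line was left out, but the call of Id4 was lost with an estimated correlation (adjusted p = 0.135).

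**Figure D4:**
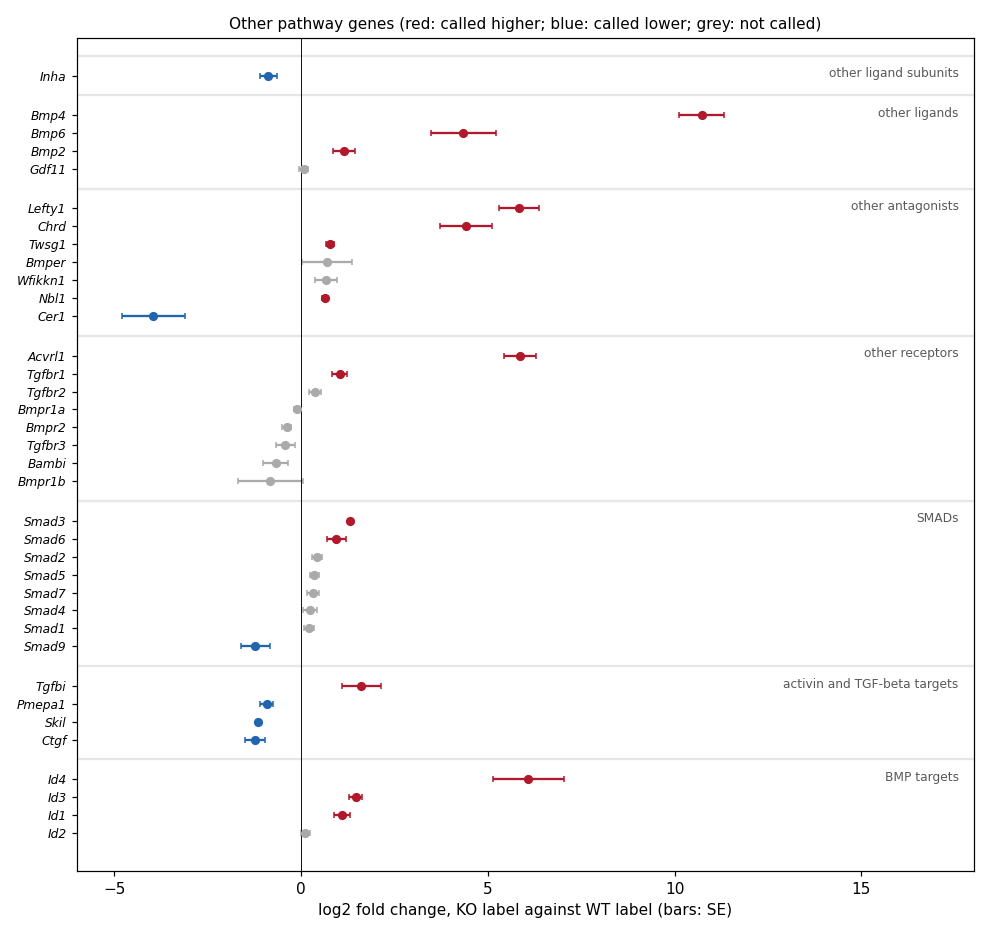
Log2 fold change between the labels, with SE bars, of the 36 tested genes of the pathway lists, red for 15 called higher, blue for 6 called lower and grey for the rest. The fitted position of Bmp4 rests on 2 counts in the libraries labelled WT, so its size is read from the counts.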

How the data were processed

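RNA sequencing of 8 libraries from 4 mouse tumor cell lines was analysed from a single table. Stranded mRNA libraries were prepared per the labels, and the authors aligned reads to mm10 with STAR and counted them per gene with HTSeq; the submitters' processing notes give STAR 2.7.3a and HTSeq 0.11.2 with DESeq2. The authors deposited a raw count per gene and library together with a signal, the same count over a library's size factor. They also deposited a comparison of their own with a log2 fold change, a score and a p-value per gene, which was not used. No gene listed had a summed count under 20. Whether counting used strand is not given in the sources used here, and genes of chromosomes X and Y are not analysed here.

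The raw counts were tested in R 4.3.3 by edgeR 4.0.16. Genes passed filterByExpr by label (15153 of 18768), counts were scaled by TMM, and the robust quasi-likelihood test set the 4 libraries of a label against the other 4, with Benjamini-Hochberg adjustment over the 15153 genes. SEs come from the fold change (log2) and F statistic. Another fit with a term for each line gave differences between lines. Calls needed an adjusted p under 0.05 and a log2 fold change over 0.59 in size. Ratios of sparse counts have exact 95% intervals, which cover counting error only. Levels per length divide CPM by exon length.

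The members and the pathway and marker lists were chosen with earlier results of these data known. Named are all members, Irf8, some markers (those called, near 0 or apart between lines), called genes of each list (up to 4 a direction by size), up to 3 uncalled by mean CPM, and 5 genes most like Fst by Pearson's r. Some other genes are named after their values were seen (Acvr1c and genes near Fst, Inhbb and Acvr1b). Alternatives were DESeq2 1.42.0, no low-count filter, upper-quartile scaling, the library number as a block, each library or line left out, line sums, limma-voom 3.58.1 with the line as a random block, and no fold threshold. Scripts were tested on simulated data. Promoter windows are from RefSeq. Some genes of the lists are not reported here and enter no list count.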

Additional observations from a re-analysis of the deposited data

Results flagged for a closer look

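In 5 members MC010 differed from MC011, both labelled IRF8 KO, by an edgeR test of that difference. On the log2 scale, MC010 minus MC011 was 2.42 for Fst, -2.69 for Fstl1, 0.81 for Fstl3, 3.57 for Inhba and 1.78 for Grem1. Both libraries of MC010 lay on the same side of both libraries of MC011 in each of these genes. No single library stood apart from the other 3 of its label in any of the 20 groups of 4 libraries examined for the members. Chance would flag about 1 group in 20 if the 4 libraries were independent. Each group holds 2 libraries of each of 2 lines, so where the lines differ a single library can hardly stand apart. The lack of flags thus says little about agreement between libraries.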

How the results depend on the processing

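Among members other than Fst, the 4 calls between the labels became 2 without line MC654, 2 without line MC659, 3 without MC010, 6 without MC011 and 3 when lines entered as a random block, and ranged from 3 to 4 with a library left out. With line sums there were 0, as for all genes, where 3361 had an unadjusted p under 0.05 and where DESeq2 on libraries called 3839. The 21 calls among other pathway genes became 12 without MC654, 10 without MC659, 24 without MC010, 24 without MC011, 14 when lines entered as a random block and 0 with line sums. With no fold threshold, the 5 calls between MC010 and MC011 became 9 and the 1 between MC654 and MC659 became 3; the latter was 1 to 2 with a library left out, Fst joining without MC654 replicate 1 and Acvr2a without MC654 replicate 2. Signs turned only where the value had not been called. Between the labels, Fstl1 turned to 0.57 without MC010 and ranged from -0.61 to 0.12 with a library left out, and Acvr2a turned to -0.10 without MC011 and -0.14 without MC654 and ranged from -0.041 to 0.165. Between MC654 and MC659, with a library left out, Acvr1 ranged from -0.079 to 0.016 and Acvr2b from -0.136 to 0.056. Same-numbered libraries did not deviate together over genes (correlations of -0.03 to 0.06 over 6 pairs). Whether they share a preparation or run is not given in the sources used here, and these correlations cannot tell. With the replicate block the members' calls between the labels stayed at 4 and those of all genes went from 3404 to 3106. Of 162 refits of single members other than Fst between the labels, 138 kept direction and side of the threshold, as did 120 of 120 between MC010 and MC011 and 115 of 120 between MC654 and MC659. Depth limits Fst in the libraries labelled WT, at 0 to 8 counts.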

Other observations

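Some other genes of the lists also differed between the lines labelled IRF8 KO without a call between the labels. Bmpr1b, a type I BMP receptor gene, was at 0.166 and 0.231 CPM in MC010 and at 2.98 and 2.67 CPM in MC011, with 1.85 to 3.41 CPM in the libraries labelled WT (MC010 minus MC011 on the log2 scale -3.86, adjusted p = 9.04e-09, edgeR line fit). Bmper, a BMP-binding modulator gene, differed in the same direction (-2.34, adjusted p = 7.31e-09). It also differed between the lines labelled WT (MC654 minus MC659 -1.35, adjusted p = 5.93e-05, edgeR line fit). Bmp7 and Nog, a BMP ligand and its antagonist, were at 0 counts in both MC010 libraries and at 1.34 and 1.53 CPM (Bmp7) and 0.778 and 0.797 CPM (Nog) in MC011; both were below the filter. Bmpr1b, Bmp7 and Nog were named after their values were seen.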
